A study of Mus musculus with 56 samples.

Results

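Livers taken at ZT0 (zeitgeber time 0, the moment of lights on) were compared between mice fed only by day (daytime-restricted feeding, DRF) and mice fed only by night (nighttime-restricted feeding, NRF), the reference regimen. The comparison used 4 DRF and 4 NRF livers, 8 of the 56 libraries of the series, chosen by their regimen and time labels. All animals were C57BL/6J females aged 9 weeks, kept on chow with 12 h of light per day, and held on their regimen for 7 days. Each liver came from a different animal, so p-values measure the spread between animals. At ZT0 the DRF mice stood at the end of the nightly fast and about to be fed, whereas the NRF mice stood at the end of their feeding phase. Time of day was therefore the same in both groups and the place in the feeding cycle was opposite.

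The hepatocyte clock is a transcriptional loop in which BMAL1 (gene Arntl) with CLOCK or NPAS2 drives genes that include the Per and Cry repressors, the REV-ERB receptors (Nr1d1, Nr1d2) and the PAR bZIP factors (Dbp, Tef, Hlf). In liver this loop is set strongly by the time of food intake. Fasting liver is known to raise glucose production, fatty acid oxidation and ketogenesis, and feeding to raise lipid synthesis and protein secretion.

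Values are scaled counts, obtained by undoing a logarithm in the deposited values. At ZT0, 420 to 550 recovered counts made up 1 unit, depending on the library. They carry no length correction, so they compare livers and not genes. DRF libraries held 456.5 to 528.3 M recovered counts and NRF libraries 386.3 to 500.3 M (M, mega). Replicates correlated across 8893 genes with r between 0.976 and 0.986 under DRF and between 0.971 and 0.981 under NRF. Differences are DRF minus NRF on log2(scaled count + 1), with their standard error (SE) and a Benjamini-Hochberg adjusted p from limma. A gene was called at an adjusted p under 0.05. The 7 hepatocyte markers tested, among them Alb and Apoa1, gave 0 calls and summed to between 112343 and 127060 scaled counts in the 8 livers. Markers of sinusoidal endothelium, Kupffer cells, stellate cells, cholangiocytes, lymphocytes, neutrophils, adipocytes and exocrine pancreas had overlapping sums in DRF and NRF livers, and no marker tested was at 0 in all 8. Only 3 of 5 neutrophil, 2 of 4 adipocyte and 1 of 5 exocrine pancreas markers were tested, with sums of at most 1.75 scaled counts. Among the members of all these lists, Lyve1 and Cd5l were called higher and Gpr182, Pdgfrb, Sox9 and Krt7 lower.

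Of 25395 genes tested, 4075 (16%) differed between DRF and NRF at ZT0, 2025 higher (7.97%) and 2050 lower (8.07%) under DRF. With the values as deposited the split was 2438 higher and 1213 lower. Most differences were small. The median size among called genes was 0.43 on the log2 scale, 2867 of them (70.4%) lay under 1.5-fold, 387 (1.52% of genes tested) reached 2-fold and 53 reached 4-fold. DRF and NRF values did not overlap in 4939 genes (19.4%), of which 3418 were called. Of protein-coding genes 21.3% were called, 1746 higher and 1467 lower. Of 3522 long noncoding RNA genes 12.7% were called, 134 higher and 314 lower. In 25 lists of liver pathways 175 of 372 genes tested were called, and the lists differed widely in direction.

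**Figure D1:**
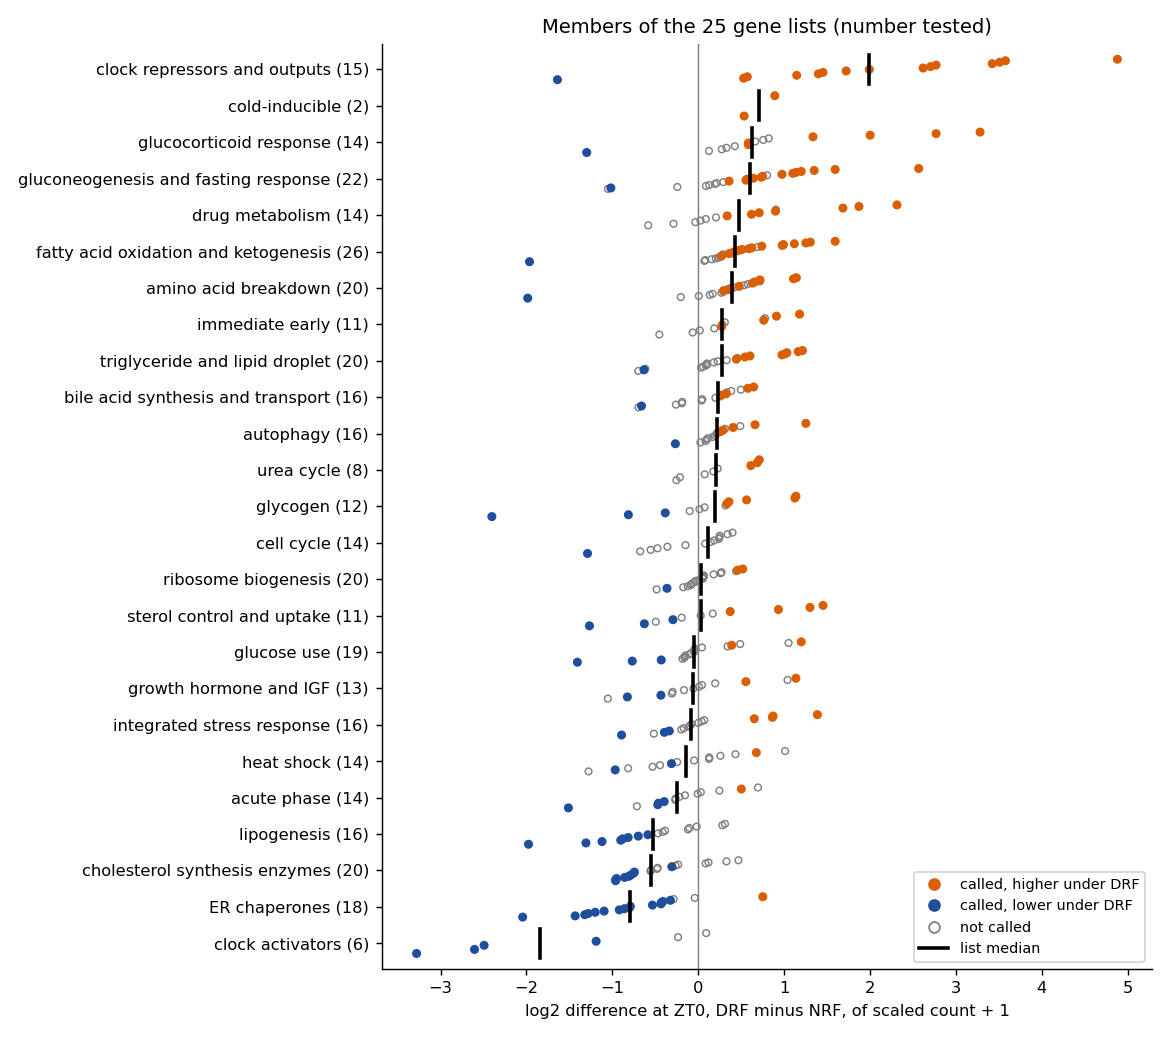
Each point is 1 gene of a pathway list (rows, with the number tested), placed by its log2 difference DRF minus NRF at ZT0 of scaled count + 1. Orange and blue filled points were called higher and lower under DRF, open points were not called, and the black bar is the list median, which was 1.99 for clock repressors and outputs, −1.84 for clock activators (with Nfil3) and −0.79 for ER chaperones.

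Among coding and long noncoding genes that separated the groups completely, Dbp, a PAR bZIP transcription factor driven by the clock, rose most under DRF. It stood at 35.2, 42.1, 39.8 and 38.5 scaled counts in the DRF livers and at 0.505, 0.41, 0.251 and 0.26 in the NRF livers. The log2 difference was 4.88 ± 0.21 (SE, adjusted p 1.67e-21). Dbp (ENSMUSG00000059824) lies on chromosome 7 at 45705088 to 45710203 on the plus strand of GRCm38. Mfsd2a, a lysophospholipid transporter, followed with 123, 218, 167 and 162 under DRF and 6.34, 12.7, 15.5 and 11.5 under NRF. Its difference was 3.78 ± 0.33 (adjusted p 5.5e-12), again with every DRF liver above every NRF liver. The other genes with the largest positive differences were the long noncoding RNA Gm14097 (3.63), Per3 (3.58), Nr1d2 (3.51), the deubiquitinase Usp2 (3.42), the sulfotransferase Sult2a3 (3.37), the metallothionein Mt2 (3.28), the deadenylase-related Noct (3.27), the acyl-CoA thioesterase Acot3 (3.03), Per1 (2.77) and Tef (2.71).

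Loxl4, a lysyl oxidase-like enzyme of matrix crosslinking, fell most. Its values were 0.754, 0.706, 1.18 and 0.917 under DRF and 35.8, 29.3, 33.5 and 22.2 under NRF, a log2 difference of −4.03 ± 0.18 (adjusted p 1.67e-21). Loxl4 (ENSMUSG00000025185) lies on chromosome 19 at 42593982 to 42612813 on the minus strand. The beta-tubulin gene Tubb2a gave 4.91, 7.04, 6.26 and 5.97 under DRF and 71.9, 84.4, 108 and 76.8 under NRF, a difference of −3.61 ± 0.18 (adjusted p 5.8e-20). Its close relative Tubb2b fell too, by 2.69 on the log2 scale. The remaining genes with the largest negative differences were the major urinary protein Mup7 (−3.29), Arntl (−3.28), the steroid dehydrogenase Hsd3b5 (−3.17), the long noncoding RNA Gm45355 (−2.85), Nfil3 (−2.60), the plasma protein A1bg (−2.57), Npas2 (−2.49), the organic anion transporter Slco1a1 (−2.43) and the glycogen-targeting phosphatase subunit Ppp1r3c (−2.40). Gm45355 is antisense to Arntl, and 11.1% of its exon bases overlap that gene. Mup7, Sult2a3, Hsd3b5 and the tubulins have near-identical relatives, so reads may have been split among copies and these values are uncertain.

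Some of these genes varied strongly between animals of a group. Hsd3b5 stood at 70.7 in NRF replicate 1 and between 4.5 and 7.59 in the other NRF livers, against 0.149 to 0.598 under DRF. Slco1a1 was likewise at 210 in NRF replicate 1 and at 27.7 to 61.2 in the others, against 6.14 to 19.9 under DRF. Noct was at 13 in DRF replicate 1 and at 55.5 to 96.5 in the other DRF livers, against 2.05 to 7.47 under NRF. The groups did not overlap in any of them.

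The clock genes of both lists differed in opposite directions. Of 6 genes listed as clock activators, a list that also holds the repressor Nfil3, 4 fell under DRF and 0 rose, with a list median of −1.84 against −0.0014 over all genes tested. Arntl, which encodes BMAL1, stood at 7.65, 6.29, 6.32 and 6.82 in the DRF livers and at 81.8, 71.6, 76.2 and 68.1 in the NRF livers, 11-fold more under NRF (log2 difference −3.28 ± 0.19, adjusted p 1.96e-17). Npas2, the CLOCK paralogue, stood at 0.332 to 0.486 under DRF and at 5.84 to 7.52 under NRF. Clock itself differed less, at 33.9 to 53.0 under DRF and 86.2 to 125 under NRF (−1.19 ± 0.16, adjusted p 1.54e-07). Nfil3, a repressor that competes with PAR bZIP factors, stood at 8.24 to 11.8 under DRF and at 62.4 to 70.6 under NRF. Rora, which encodes a nuclear receptor that activates Arntl, was not called (0.09 ± 0.07), and its group values overlapped.

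Of 15 repressors and outputs of the clock, 14 rose and 1 fell. The period genes rose by different amounts: Per3 stood at 43.9 to 48.0 under DRF and 1.6 to 3.92 under NRF, Per1 at 15.5 to 28.9 and 1.35 to 3.94, and Per2 at 35.2 to 74.8 and 7.10 to 22.8. Per2 thereby gave a difference of 1.72 ± 0.26 (adjusted p 2.55e-06), smaller than the 3.58 of Per3. Among the REV-ERB genes, Nr1d2 was at 160, 151, 162 and 156 under DRF and at 14.6, 11.8, 8.73 and 18.1 under NRF, a difference of 3.51 ± 0.17 (adjusted p 2.34e-20). Nr1d1 was at 12.4 to 27.7 under DRF and 1.2 to 5.6 under NRF (2.62 ± 0.31, adjusted p 1.92e-08). Ciart, which encodes the repressor CHRONO, stood at 1.49 to 2.07 under DRF and at 0.032 to 0.0482 under NRF, 46.2-fold apart, whereas its difference on the log2(scaled count + 1) scale was only 1.45 because the added 1 dampens low values. Wee1, a kinase that restrains entry into mitosis, was at 20.9 to 25.1 and 3.44 to 5.64.

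Cry1 was the member that fell. It stood at 31.5, 41.4, 30.7 and 30.2 in the DRF livers and at 126, 114, 103 and 82.4 in the NRF livers (−1.64 ± 0.20, adjusted p 2.31e-08). Its paralogue Cry2 went the other way, at 35.5 to 46.8 under DRF and 23.1 to 27.7 under NRF (0.57 ± 0.10, adjusted p 6.22e-05). All 8 livers thus separated by regimen in both cryptochromes, in opposite directions.

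**Figure D2:**
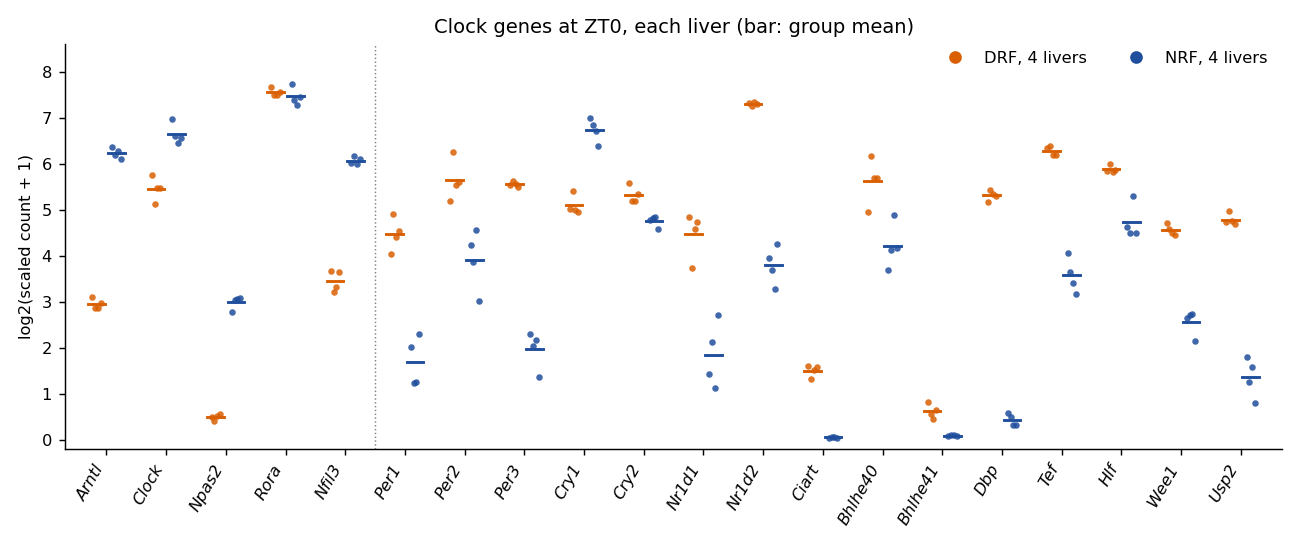
Scaled counts at ZT0 as log2(scaled count + 1) for 5 genes of the list with Arntl (left of the dotted line) and 15 repressors and outputs, 1 point per liver, with bars at the group means. DRF livers (orange) lie below NRF livers (blue) for Arntl, Clock, Npas2, Nfil3 and Cry1 and above them for the other repressors and outputs, and the groups overlap for Rora.

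BMAL1 with CLOCK or NPAS2 binds the E-box, and the ROR and REV-ERB receptors share the ROR element. RefSeq promoters of GRCm38.p6, reaching from 250 bases before the annotated start to 50 after it, were found for 12 of the 15 repressors and outputs and for 5 of the 6 genes of the list with Arntl. The E-box CACGTG, which reads the same on both strands, was in 5 of the 12 (Per1, Cry1, Ciart, Tef and Bhlhe41), against 8.09% of 27025 genes with a promoter. The ROR element, searched as TAGGTCA or TGGGTCA on both strands, was in 2 of the 5 (Arntl and Nfil3) and in 0 of the 12, against 7.35% of genes. The D-box, searched as TTATG, any base and AA and bound by the PAR bZIP factors and NFIL3, was in 2 of the 12 (Per1 and Per3), against 3.99% of genes. The windows below show these letters in the genes whose values are given above, written along each gene's strand with the motif in capitals. They carry the E-box in Per1 at chr11:69098771-69098800 (plus strand), Cry1 at chr10:85185097-85185126 (minus strand), Ciart at chr3:95882327-95882356 (minus strand) and Tef at chr15:81802534-81802563 (plus strand), and the ROR element in Arntl at chr7:113207530-113207558 (plus strand) and Nfil3 at chr13:52981034-52981062 (minus strand).
Per1: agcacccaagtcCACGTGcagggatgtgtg
Cry1: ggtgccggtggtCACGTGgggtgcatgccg
Ciart: tgcatctagagtCACGTGttgccggtaagc
Tef: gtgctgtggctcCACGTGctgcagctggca
Arntl: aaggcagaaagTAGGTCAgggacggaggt
Nfil3: gcgctcggaacTGACCTActaacacacat
Cry1 thus holds the same E-box letters as Per1 and Tef while its level differed in the other direction. Binding was not measured.

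Genes of glucose production and of the fasting response were mostly higher in the DRF livers. Of 22 tested, 13 rose and 1 fell, with a median of 0.61. Pck1, the cytosolic PEPCK of gluconeogenesis, stood at 924, 980, 1053 and 1081 scaled counts under DRF and at 207, 161, 78.9 and 312 under NRF. The groups lay 5.32-fold apart (2.57 ± 0.36, adjusted p 6.58e-07), and NRF livers varied more than DRF livers. The coactivator Ppargc1a was at 58.1 to 73.3 under DRF and 24.1 to 30.3 under NRF (1.20 ± 0.15, adjusted p 8.1e-08), and the alanine transaminase Gpt2 at 704 to 957 and 301 to 441. The fasting transcription factors Foxo1, Foxo3 and Creb3l3 rose by smaller steps of 0.57, 0.75 and 0.64. The mitochondrial carrier Slc25a25 was called at 1.35 ± 0.44 (adjusted p 0.027), but its adjusted p reached 0.084 without DRF replicate 3, 0.0755 without DRF replicate 4 and 0.135 without NRF replicate 1.

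Several members known for fasting did not follow this direction. G6pc, the glucose-6-phosphatase that releases glucose, was at 107 to 205 under DRF and 133 to 262 under NRF and was not called (−0.24 ± 0.34). Klf15 (0.29 ± 0.15), the hepatokine Fgf21 (0.09 ± 0.10) and the insulin-repressed Igfbp1 (−1.05 ± 0.62) were not called either, and their groups overlapped. The insulin receptor substrate Irs2, commonly described as raised by fasting, was lower under DRF, at 34.3, 14.1, 30.6 and 37.9 against 56.3, 61.8, 35.6 and 81.9 (−1.02 ± 0.28, adjusted p 0.0086). Its groups overlapped slightly, and its adjusted p was 0.0914 without DRF replicate 2, which was the lowest DRF liver, and 0.0517 without NRF replicate 4, the highest NRF liver.

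Fatty acid oxidation and ketogenesis shifted upwards under DRF, with 15 of 26 genes tested higher, 1 lower and a median of 0.43. Cpt1a, the carnitine palmitoyltransferase that admits fatty acids into mitochondria, stood at 253, 234, 231 and 254 under DRF and at 84.8, 75.8, 70.8 and 88.9 under NRF (1.59 ± 0.14, adjusted p 3.6e-12). Its regulator Ppara was at 322 to 361 under DRF and 135 to 162 under NRF (1.25 ± 0.14, adjusted p 7.08e-09). The carnitine transporter Slc22a5 gave 1.12 ± 0.22 and the acyl-CoA dehydrogenase Acadm 0.74 ± 0.12. The fatty acid hydroxylase Cyp4a14 gave 1.31 ± 0.36, with DRF replicate 3 at 414 and the other DRF livers at 707 to 916.

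Pdk4, the kinase that turns off pyruvate dehydrogenase and is classed among fasting genes, was the member that fell. It stood at 9.79, 4.34, 4.48 and 6.67 in the DRF livers and at 21.3, 40, 22.7 and 24.9 in the NRF livers, 4.31-fold more under NRF. The log2 difference was −1.96 ± 0.33 (adjusted p 1.58e-05), and the lowest NRF liver lay above the highest DRF liver.

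Of 20 triglyceride turnover genes 8 were called higher and 1 lower (median 0.28), and 17 had a positive difference. The phosphatidate phosphatase Lpin2 was at 67.8 to 77.3 under DRF and 28.5 to 32.8 under NRF (1.21 ± 0.12, adjusted p 8.43e-11). Pnpla2, the triglyceride lipase ATGL, was at 14.9 to 18.9 and 6.45 to 9.62 (1.03 ± 0.13, adjusted p 4.26e-08). The other genes called higher were G0s2, Cidec, Lpin1, Mogat1, Lipe and Dgat2, and Agpat2 was called lower, a call lost without DRF replicate 2 or 4 or NRF replicate 2 or 3.

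In lipogenesis 8 of 16 genes tested were lower and 0 higher, with a median of −0.53. The lower count was 4 without NRF replicate 3, 5 without DRF replicate 1, and 4 with only the groups compared or with deposited values. When either of these libraries was left out, 1 gene was higher. The same held for deposited values, median-of-ratios scaling, a length correction and a filter at a mean scaled count of 1. Pnpla3 fell most, from 6.31 to 24.5 under NRF to 1.25 to 3.43 under DRF (−1.98 ± 0.43, adjusted p 0.000655). ATP-citrate lyase, Acly, was at 234 to 342 under DRF and 433 to 1060 under NRF (−1.12 ± 0.28, adjusted p 0.00309). The glucose-sensing factor Mlxipl was at 51.9 to 61.3 and 90.1 to 112 (−0.82 ± 0.16, adjusted p 0.000149). Acss2, Acacb and Elovl5 were called lower as well.

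Fatty acid synthase, Fasn, was at 122, 273, 150 and 150 under DRF and 260, 481, 821 and 278 under NRF, so that DRF replicate 2 exceeded the lowest NRF liver. Its difference of −1.31 ± 0.38 (adjusted p 0.0119) became −0.98 without NRF replicate 3 (adjusted p 0.0978) and −1.16 without DRF replicate 1 (adjusted p 0.0525). Srebf1, the SREBP-1 gene, was called by a small margin (−0.59 ± 0.20, adjusted p 0.0403). It was no longer called without DRF replicate 1, 3 or 4 or NRF replicate 2 or 3, and its adjusted p then lay between 0.0766 and 0.251. NRF replicate 3 had the highest Fasn, Acly, Pnpla3 and Srebf1 of the 8 livers.

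Of 20 cholesterol synthesis enzymes 9 were lower and 0 higher, with a median of −0.55. The lower count was 5 without NRF replicate 3 and 4 with deposited values, and 1 enzyme was higher without DRF replicate 1. Pmvk, Fdps and Lss, which act between mevalonate and lanosterol, differed by −0.96 ± 0.21, −0.96 ± 0.25 and −0.95 ± 0.24, and the later enzyme Sc5d by −0.86 ± 0.15 (adjusted p 4.86e-05). Fdps stood at 28.1 to 47.1 under DRF and 63.8 to 109 under NRF, without overlap.

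Sterol control genes split, with 4 of 11 higher and 3 lower (1 with deposited values). The sterol exporters Abcg5 and Abcg8, which form 1 heterodimer and are neighbours in the genome, rose together. Abcg5 was at 209, 217, 215 and 212 under DRF and 69.0, 78.3, 75.7 and 86.8 under NRF (1.45 ± 0.14, adjusted p 1.29e-10), and Abcg8 at 71.7 to 74.1 and 24.6 to 35.6. Mylip, a ubiquitin ligase that degrades the LDL receptor, rose by 0.93 ± 0.12. Insig2, which retains SREBP in the ER, was at 19.6 to 32.3 under DRF and 52.0 to 72.3 under NRF (−1.27 ± 0.20, adjusted p 4.52e-06). Srebf2, the SREBP-2 gene, was not called (−0.19 ± 0.13).

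Glucose handling genes differed member by member. The glucose transporter Slc2a2 was at 595, 589, 584 and 590 under DRF and 216, 262, 270 and 280 under NRF (1.20 ± 0.13, adjusted p 2.3e-09), a difference far above the spread of either group. The pentose phosphate enzyme Pgd was at 13 to 14.8 and 18.5 to 32.7 (−0.77 ± 0.15). Of 19 glucose use genes, 2 rose and 3 fell, and the median was −0.05. Without DRF replicate 1 or NRF replicate 1, 1 rose, and with only the groups compared 1 fell.

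Glycogen genes also split, with 5 of 12 higher and 3 lower. The lower count was 1 without NRF replicate 3, with deposited values and with only the groups compared. Glycogen synthase, Gys2, was at 506 to 572 under DRF and 216 to 279 under NRF (1.14 ± 0.11, adjusted p 2.27e-10). Ugp2, which makes the UDP-glucose it uses, was at 1194 to 1549 and 598 to 672 (1.12 ± 0.16). Ppp1r3c, which brings protein phosphatase to glycogen, was at 6.95, 7.45, 6.60 and 9.25 under DRF and 48.5, 45.0, 43.3 and 39.6 under NRF (−2.40 ± 0.19, adjusted p 2.09e-13). Gys2 and Ppp1r3c thus stood in opposite order in every pair of DRF and NRF livers. Ppp1r3b and Pygl were the other genes of the list called lower.

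Amino acid breakdown rose in 10 of 20 genes tested and fell in 1, with a median of 0.40. Without NRF replicate 1, 6 rose. Oat, the ornithine aminotransferase, was at 1633 to 2002 under DRF and 657 to 952 under NRF (1.14 ± 0.20, adjusted p 2.34e-05). Sds, the serine dehydratase, was at 109 to 133 and 50.6 to 59.1 (1.11 ± 0.21). Ddc, which decarboxylates aromatic amino acids, was the exception at 50.2, 43.5, 54.1 and 47.8 under DRF and 184, 213, 200 and 188 under NRF (−1.98 ± 0.14, adjusted p 3.01e-14). In the urea cycle 3 of 8 genes rose and none fell. These were Asl (0.71 ± 0.16), the aspartate carrier Slc25a13 (0.69 ± 0.08) and arginase, Arg1 (0.61 ± 0.11).

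Drug and heme metabolism showed 7 of 14 genes higher and none lower (median 0.48). Alas1, the first enzyme of heme synthesis, was at 192, 338, 254 and 249 under DRF and 42.1, 57.0, 78.6 and 33.2 under NRF (2.31 ± 0.37, adjusted p 6.97e-06). Por, the reductase that supplies electrons to P450 enzymes, was at 197 to 212 and 58.1 to 68.1 (1.68 ± 0.11, adjusted p 4.23e-16). The coumarin hydroxylase Cyp2a5 was at 898 to 1291 and 154 to 416. The receptors CAR (Nr1i3) and PXR (Nr1i2) rose by 0.90 ± 0.13 and 0.62 ± 0.11. Cyp2b10, the usual CAR target, was not called, at 108 to 328 under DRF and 169 to 328 under NRF.

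**Figure D3:**
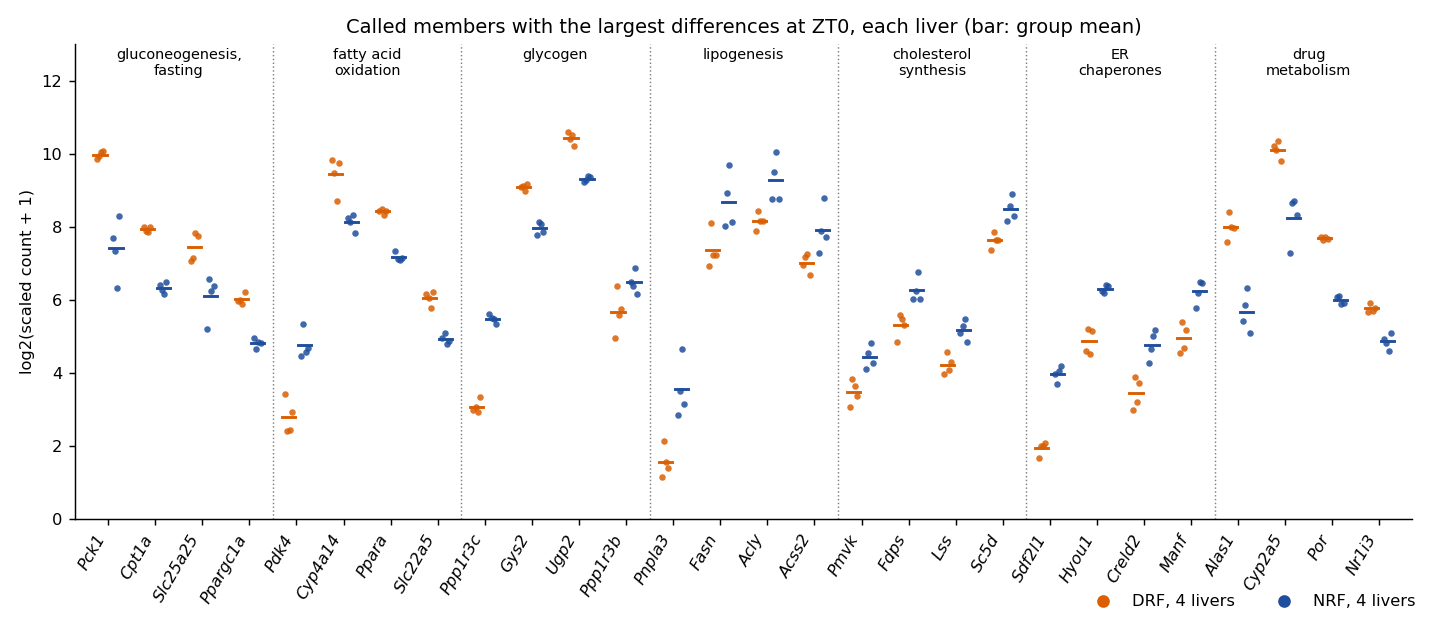
Scaled counts at ZT0 as log2(scaled count + 1) for the 4 called genes with the largest differences in 7 lists, leaving out genes already shown. Cpt1a thus stands under gluconeogenesis and not under fatty acid oxidation. Each point is 1 liver, bars are group means and dotted lines part the lists. DRF livers (orange) lie above NRF livers (blue) for Pck1, Cpt1a, Gys2 and Por and below them for Pdk4, Ppp1r3c and Sdf2l1, while Fasn overlaps.

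ER chaperones and folding factors ran nearly uniformly, with 15 of 18 genes lower under DRF (9 with deposited values), 1 higher and a median of −0.79. Sdf2l1, an ER-resident cofactor of protein folding, stood at 2.21, 3.04, 3.01 and 3.24 under DRF and 14.7, 12.0, 15.8 and 17.4 under NRF (−2.04 ± 0.22, adjusted p 2.3e-09). Hyou1 was at 22.0 to 35.9 and 71.9 to 84.0 (−1.43 ± 0.21, adjusted p 9.98e-07), and Pdia6 at 70.9 to 94.3 and 151 to 225 (−1.20 ± 0.13, adjusted p 1.82e-09). Creld2, Manf and Calr differed by −1.32 ± 0.34, −1.28 ± 0.23 and −1.10 ± 0.13.

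Hspa5, which encodes BiP, the chief ER chaperone, was at 62.9, 109, 75.4 and 83.8 under DRF and 108, 134, 154 and 177 under NRF (−0.79 ± 0.25, adjusted p 0.0205), with a slight overlap. It was not called without DRF replicate 1 (adjusted p 0.0935), DRF replicate 3 (0.0532), NRF replicate 3 (0.0574) or NRF replicate 4 (0.0798). Herpud1, a component of ER-associated degradation, was the member that rose, at 83.7 to 97.6 under DRF and 42.4 to 62.3 under NRF (0.75 ± 0.20, adjusted p 0.00593).

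The ER stress element, searched as CCAAT and CCACG with 9 bases of any kind between them on both strands, was found in 7 of the 16 chaperone promoters available, against 0.137% of 27025 genes. These were Calr, Canx, Creld2, Dnajc3, Hsp90b1, Hspa5 and Pdia6. All of them were lower under DRF, but so were 15 of the 18 genes of the list, with or without the element. The windows show the element in capitals in the members whose values are given above: Hspa5 at chr2:34772020-34772048 (plus strand), Pdia6 at chr12:17266486-17266514 (plus strand), Creld2 at chr15:88819515-88819543 (plus strand) and Calr at chr8:84847070-84847098 (minus strand).
Hspa5: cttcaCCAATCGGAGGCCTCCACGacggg
Pdia6: agagaCCAATGAAAGGCGGCCACGgcgtg
Creld2: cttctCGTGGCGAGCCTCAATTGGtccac
Calr: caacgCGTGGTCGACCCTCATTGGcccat
Along the gene's strand the element runs forward in Hspa5 and Pdia6 and in reverse in Creld2 and Calr. Sdf2l1, Hyou1 and Herpud1 are not among the 7. The sterol element, TCACC followed directly by CCAC on either strand, was in 1 of 15 cholesterol synthesis promoters (Hmgcs1), against 0.614% of genes, and the cAMP element, TGAC followed directly by GTCA, in 1 of 18 gluconeogenesis promoters (Slc25a25), against 2.03%.

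The integrated stress response went both ways, with 4 of 16 genes higher (Atf3, Vldlr, Trib3 and Sesn2) and 3 lower (Atf5, Psph and Mthfd2). When only the groups compared were fitted, 0 were higher. In the heat shock list 1 of 14 genes was higher and 2 were lower. The higher count was 3 without DRF replicate 1, 2 without DRF replicate 4 or NRF replicate 3, and 0 without DRF replicate 2 or 3 or NRF replicate 1 or 2. The lower count was 3 without DRF replicate 2 and 1 without DRF replicate 1 or 4 or NRF replicate 1, 3 or 4. In ribosome biogenesis 2 of 20 were higher and 1 lower. The higher count was 0 without NRF replicate 3, 1 without DRF replicate 1 and 4 without DRF replicate 2. Over all genes 4075 of 25395 were called, and of protein-coding genes 21.3%. The share called was below both in ribosome biogenesis and near that of protein-coding genes in heat shock. Neither list was tested against these shares. Of the cold-inducible RNA-binding genes Cirbp and Rbm3, both called higher, Cirbp lost its call without DRF replicate 1 or 3 or NRF replicate 1 or 3, and also with a pseudocount of 0.1 or 5, the replicate block or only the groups compared. Rbm3 kept its call without each of the 8 libraries. Rbm3 was at 4.68 to 5.64 under DRF and 1.71 to 2.83 under NRF (0.89 ± 0.14, adjusted p 5.72e-06).

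Genes that respond to glucocorticoids, steroid hormones whose plasma level is known to peak before feeding, gave 6 of 14 higher and 1 lower (median 0.62). Those higher were Mt2, Per1, Mt1, Errfi1, Sgk1 and Klf9. The receptor gene Nr3c1 and the members Fkbp5, Tsc22d3, Zbtb16, Dusp1, Hsd11b1 and Gadd45g were not called. At ZT24 the list median was 0.15. Mt2 stood at 83.6, 18.3, 43.4 and 45.9 under DRF and 6.43, 3.68, 1.20 and 3.96 under NRF (3.28 ± 0.50, adjusted p 3.58e-06), and the neighbouring Mt1 at 24.4 to 75.4 and 5.08 to 19.9 (2.0 ± 0.44, adjusted p 0.000868). Errfi1, an inhibitor of the EGF receptor, was at 127 in DRF replicate 1 and at 230 to 232 in the other DRF livers, against 59.7 to 102 under NRF (1.34 ± 0.35, adjusted p 0.00494). Cdkn1a, the p21 inhibitor of the cell cycle, fell from 1.47 to 4.60 under NRF to 0.311 to 0.546 under DRF (−1.30 ± 0.24, adjusted p 8.96e-05). It was the called gene of 14 in the cell cycle list, a smaller share than over all genes tested. In that list 1 other was called higher without DRF replicate 3, and 4 were lower with only the groups compared.

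Immediate early genes, which respond to signals within minutes, were called higher in 4 of 11 (Jun, Zfp36, Klf10 and Ier3). The count was 2 without DRF replicate 3 or 4 or NRF replicate 1 or 4. The other 7, Fos, Egr1, Junb, Jund, Ier2, Btg2 and Klf6, were not called. Of the 11, 9 had a positive and 2 a negative difference. Jun was at 4.13, 5.54, 12.3 and 6.23 under DRF and 1.47, 2.61, 3.39 and 2.13 under NRF (1.18 ± 0.24, adjusted p 0.000256). Related early responders of other lists rose as well, Nr4a1 by 1.10 ± 0.17 and Atf3 by 1.39 ± 0.33. In Atf3, DRF replicate 1 was at 5.74, below 2 of the NRF livers, while the other DRF livers stood at 22.5 to 27.6.

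In smaller groups single genes differed. Hamp, which encodes the iron hormone hepcidin, stood at 549 to 1980 under DRF and 2272 to 4192 under NRF (−1.51 ± 0.40, adjusted p 0.0051) in an acute phase list with 4 of 14 genes lower and 1 higher. The higher gene, Lbp, lost its call without DRF replicate 1, 2 or 4 or NRF replicate 2, 3 or 4. With deposited values 1 gene was lower. Hamp lost its call with only the groups compared (adjusted p 0.058) and was not called at ZT24. In the autophagy list 5 of 16 rose (3 without DRF replicate 1, 2 with only the groups compared) and 1 fell (0 without DRF replicate 2 or NRF replicate 4), led by the mitophagy receptor Bnip3 (1.25 ± 0.26) and the initiating kinase Ulk1 (0.66 ± 0.13). Of 16 bile acid genes 4 rose and 1 fell, and 2 rose without DRF replicate 1 or 3 or NRF replicate 1 or 4, while 4 fell with only the groups compared. The uptake carrier Slc10a1 rose by 0.65 ± 0.11, and the export pump Abcb11 fell by 0.66 on the log2 scale (adjusted p 1.42e-06). With deposited values Abcb11 was not called (−0.065, adjusted p 0.118). Cyp7a1, the rate-limiting enzyme, was not called (0.50 ± 0.38). Of 13 growth hormone and IGF genes 2 rose (1 without DRF replicate 3 or 4 or NRF replicate 1 or 2) and 2 fell, and the signal transducer Stat5a was at 8.95 to 10.3 under DRF and 16.2 to 20.8 under NRF (−0.82 ± 0.11, adjusted p 1.07e-07).

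Erythroid markers moved with regimen as well. Of 5, the hemoglobin genes Hbb-bt, Hba-a1 and Hba-a2 were called higher, and the median was 1.03. Hbb-bt was at 632, 254, 631 and 607 under DRF and 253, 177, 194 and 297 under NRF (1.14 ± 0.34, adjusted p 0.0154). Summed erythroid values ranged from 714 to 2039 under DRF, with DRF replicate 2 lowest, and from 582 to 950 under NRF, so the groups overlapped. The call on Hbb-bt was lost without DRF replicate 1, 3 or 4 or NRF replicate 2, with an adjusted p of up to 0.0595, and that on Hba-a1 without DRF replicate 1 or 3 or NRF replicate 2, with up to 0.0823. In bulk liver, fewer cells of a type and less RNA per cell cannot be told apart. The part of blood in other results was not tested.

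The difference was measured again at ZT24, the same time of day in 8 other animals. There 3567 genes (14%) were called, 1805 higher (7.11%) and 1762 lower (6.94%). Of the 4075 genes called at ZT0, 2328 (57.1%, and 65.3% of those called at ZT24) were called in the same direction at ZT24, 0 were called in the opposite direction, and 3882 (95.3%) had the same sign. Of the 387 genes with at least a 2-fold difference, 321 were called again. The difference of differences between ZT0 and ZT24 passed an adjusted p of 0.05 in 1 gene (0.00394%), Gm31323, and an unadjusted p of 0.05 in 1502. Values at ZT24 were 4.45 for Dbp, 2.93 for Mfsd2a, −4.06 for Loxl4, −2.75 for Arntl, 2.42 for Pck1, 1.62 for Cpt1a and −1.91 for Sdf2l1. In the clock list 13 of the 14 higher repressors and outputs and the lower Cry1 were called in the same direction again, as were 13 of 16 called ER chaperones and 9 of 9 called cholesterol enzymes.

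None of the 4 immediate early genes was called at ZT24, and Jun differed there by −0.19, Nr4a1 by −0.09, Atf3 by −0.38 and Errfi1 by 0.12. Noct (1.36, adjusted p 0.0906), Mup7 (−1.44, adjusted p 0.273), Slc25a25 (0.28, adjusted p 0.81), Hamp (−0.91, adjusted p 0.133), Cyp4a14 (0.71, adjusted p 0.219), Hspa5 (−0.48, adjusted p 0.229), Irs2 (0.01, adjusted p 0.998) and the hemoglobins were not called at ZT24 either. For none of these did the test of ZT0 against ZT24 itself pass.

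At ZT12, lights off, both regimens stood at the other end of the feeding cycle, and 3831 genes (15.1%) were called, 1773 higher (6.98%) and 2058 lower (8.10%). Of the genes called at ZT0, 1925 (47.2%, and 50.2% of those called at ZT12) were called in the opposite direction, and 46 in the same direction. The difference at ZT0 differed from that at ZT12 in 5706 genes (22.5%), which included 3424 (84.0%) of the genes called at ZT0. This test contains the ZT0 difference by which those genes were called. Its count among called genes, in all or within a list, is therefore raised by that choice and does not show a change of direction. Dbp changed from 4.88 at ZT0 to −3.79 at ZT12, Arntl from −3.28 to 4.62, Tubb2a from −3.61 to 3.90, Ppp1r3c from −2.40 to 3.17 and Pck1 from 2.57 to −1.98. In the clock lists 14 of 15 called repressors and outputs and 4 of 4 called genes of the list with Arntl turned, that is, were called in the opposite direction. In fatty acid oxidation 4 of 16 called genes turned, and the difference at ZT0 differed from that at ZT12 in 11 of the 16. In amino acid breakdown 2 of 11 turned, and the differences differed in 7. Acadm (0.16), Cyp4a14 (0.81), Oat (0.48) and Arg1 (−0.07) were not called at ZT12.

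**Figure D4:**
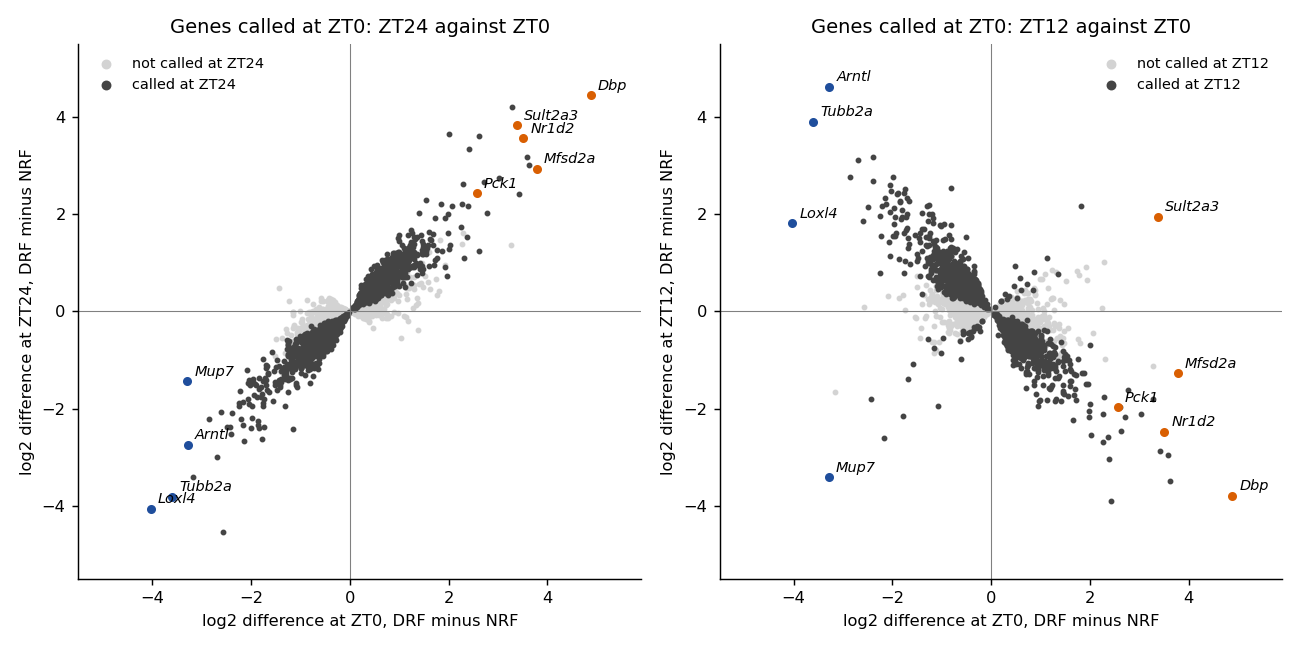
Genes called at ZT0, with the log2 difference DRF minus NRF at ZT0 on the x axes and at ZT24 (left) or ZT12 (right) on the y axes. Dark points were called at the second time as well, and named genes are coloured by their direction at ZT0. Dbp, Arntl and Pck1 keep their sign at ZT24 and change it at ZT12, whereas Mup7 and Sult2a3 have the same sign at all 3 times.

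The 46 genes called in the same direction at ZT0 and ZT12 included protein-coding genes, pseudogenes and antisense RNAs, and no shared theme was tested. Mup7 (−3.41 at ZT12), Slco1a1 (−1.80), the serpin Serpina1e (−2.61) and Cyp3a44 (−2.15) were lower under DRF at both times, and Sult2a3 (1.95) and Cyp3a59 (0.77) were higher. Serpina1e stood at 170, 184, 380 and 267 under DRF and 2338, 451, 1657 and 739 under NRF at ZT0 (−2.16 ± 0.49, adjusted p 0.00122). Cyp3a44 was at 21.1 to 85.9 and 99.3 to 541, and its call was lost without DRF replicate 1 or NRF replicate 3 (adjusted p up to 0.0686). Cyp3a59, a P450 enzyme at 207 to 300 under DRF and 90.7 to 98.5 under NRF (1.35 ± 0.18, adjusted p 3.15e-07), was the gene (1 of 25395, 0.00394%) called in the same direction at all 7 times. Serpina1e and the Cyp3a genes have near-identical relatives too. A further 627 genes were called at ZT0 and at no other time, and 159 at ZT0 and ZT24 but at none of the 5 times between.

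**Figure D5:**
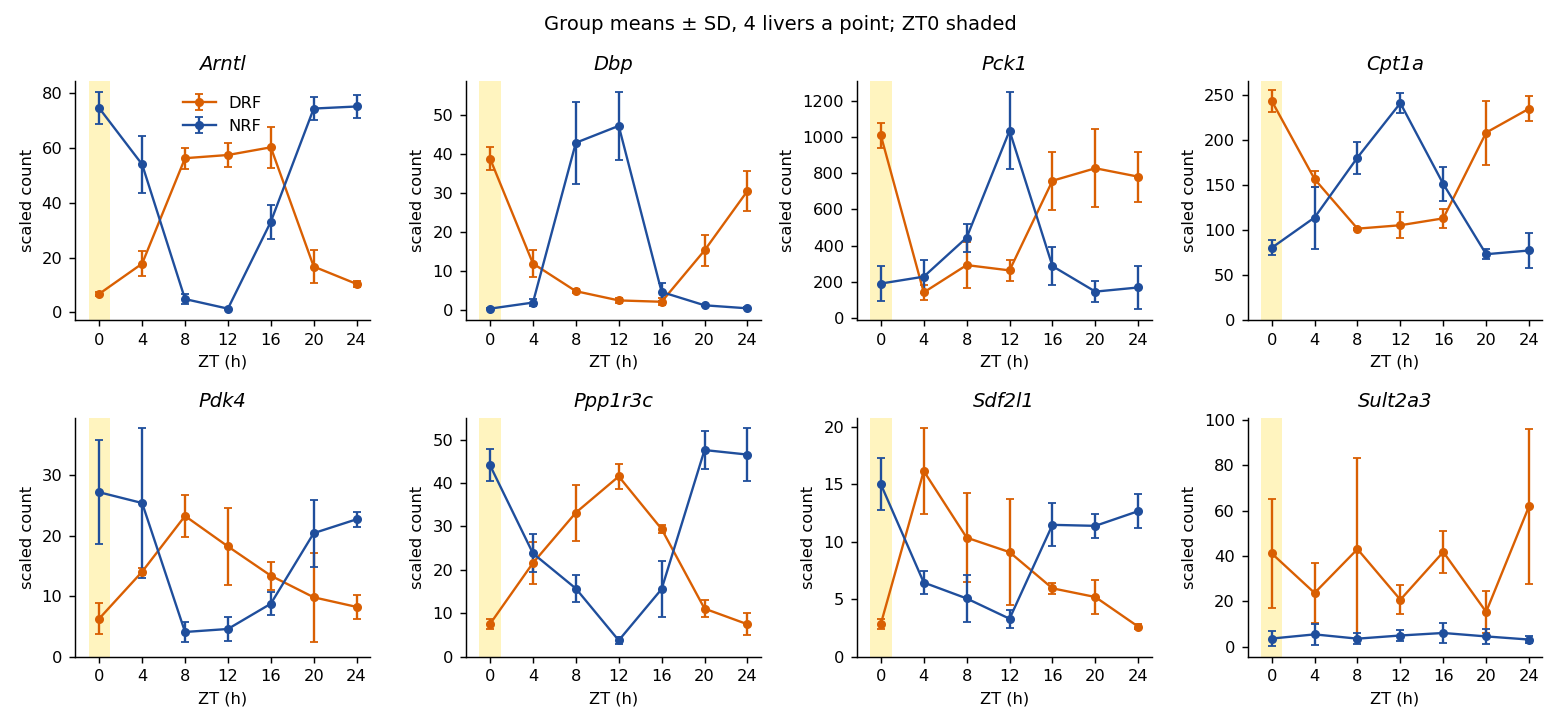
Group means ± SD of scaled counts (y axis, n = 4 livers a point) against ZT in hours for 8 genes, DRF in orange and NRF in blue, with ZT0 shaded. Regimens cross between ZT0 and ZT12 for Arntl, Dbp, Pck1, Cpt1a, Pdk4, Ppp1r3c and Sdf2l1, while the mean of Sult2a3 is higher under DRF at every time.

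Some of these genes share exon bases with a gene on the other strand, among them Dbp with Sphk2 (18.0%), Mt2 with Gm45774 (73.5%), Nr1i3 with Tomm40l (74.9%) and Sds with Plbd2 (29.6%). The libraries were strand-specific, but the use of strand in counting is not given in the sources used here. Fdps shares 26.7% of its exon bases with Gm43738 on its own strand. Should strand not have been used, reads of such partners could not be told apart.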

How the data were processed

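Liver RNA of 56 mice (14 groups of 4) was depleted of ribosomal RNA and sequenced from strand-specific libraries, per the protocol in the labels, whose molecule field reads polyA RNA. The submitters' processing notes name CASAVA 1.8, featureCounts 1.5.0-p3, mm10 and GRCm38.p6. The gene values deposited by the authors, named TPM, are not linear in reads and were treated as a score: the product of value and exon length equalled a·ln(1 + f·k), where k is a whole count and a and f are constants of the library. The product f·k, the scaled count, was recovered with GENCODE vM21 lengths for 23035 genes and with searched lengths for 2207. Of values at up to 10 counts 98.9% came within 0.05 of a whole number, where 10% would by chance. For 153 deep genes the annotated length was used, and 20 of 25415 genes, 19 of them too deep to judge and 1 without whole counts, were left out, which left 25395. Recovered counts exceed the reads sequenced, so precision is given by the spread between animals.

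limma 3.58.1 in R 4.3.3 was fitted to log2(scaled count + 1) of all 56 libraries, with contrasts at ZT0, ZT24 and ZT12 and their differences, and p-values were adjusted over all genes tested. A log2 difference on this scale understates changes of low genes. The method was tested on simulated data. Named genes were the 12 with the largest difference in each direction among called protein-coding or long noncoding genes whose groups did not overlap and whose higher group had a mean of at least 5, plus members of 25 pathway lists, called members of largest difference before the others, and regulators whether called or not. Serpina1e, Cyp3a44, Cyp3a59 and uncalled members other than regulators were named after their values were seen. Members and lists were chosen with earlier results of these data known. Alternatives were 2 other pseudocounts (0.1 and 5), deposited values, median-of-ratios scaling, a filter, a variance trend, a length correction, the replicate number as a block, only the groups compared, and each replicate left out. Some list members are counted but not reported singly here. Some genes, Cpt1a, Lpin1 and Per1 among them, belong to more than 1 list and are counted in each. The transcript and circRNA tables were not used here. Promoters came from RefSeq (GRCm38.p6) and were searched for exact letters.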

Additional observations from a re-analysis of the deposited data

Results flagged for a closer look

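In 220 groups of 4 values (110 genes, both regimens), 11 held a value set far apart from the other 3, where chance sets about 1 in 20 groups apart. Under DRF these were Errfi1 at 127 and Cyp3a44 at 21.1, both lowest in replicate 1, Hbb-bt at 254 (lowest) and Cry1 at 41.4 (highest) in replicate 2, and Slc25a13 at 1084 (lowest) in replicate 3. Under NRF they were Npas2 at 5.84 (lowest), Hsd3b5 at 70.7 (highest) and Acot3 at 8.65 (lowest) in replicate 1, Gm45355 at 13.5 (highest) in replicate 2, and Wee1 at 3.44 (lowest) and Mylip at 15.5 (highest) in replicate 4. The regimens did not overlap in 10 of these genes. They overlapped in Hbb-bt.

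The difference of Gm31323 was lower at ZT0 than at ZT24 by 0.36 on the log2 scale (−0.36). The differences at ZT0 and ZT12 differed in 5706 genes.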

How the results depend on the processing

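The count of 4075 genes lay between 3376 (only the groups compared) and 4064 in the alternatives that kept all replicates, and between 3372 (without DRF replicate 1) and 3822 with a replicate left out. The calls repeated at ZT24, 2328, lay between 2019 and 2239 with a replicate left out and fell to 1437 when only the groups compared were fitted. The single gene that differed between ZT0 and ZT24 became 0 under the filter, the length correction and the fit of only the groups compared, and 0 to 6 with a replicate left out (6 without DRF ZT0 replicate 1). For ZT0 against ZT12 the 5706 genes became 4838 to 5744, and 5255 to 5719 with a replicate left out. The 175 called list genes became 147 to 187, and 148 to 164 with a replicate left out. The causes were not tested.

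The share of called genes that were higher, 49.7%, became 66.8% with the deposited values, under which genes lower numbered 1213 against 2050. Genes of at least 2-fold numbered 791 and 210 with pseudocounts of 0.1 and 5, against 387. Calls of long noncoding RNA genes, 134 higher and 314 lower, became 75 and 220 under the filter, and 99 and 208 with only the groups compared. Same-numbered replicates did not deviate together (correlations −0.0122, −0.133, 0.0696 and −0.0543), so the numbers pair no samples. The replicate block gave 4064 genes, 2328 repeated calls, 173 list genes and 1 and 5709 genes for ZT0 against ZT24 and ZT12. Of 1866 recomputed differences of 110 named genes, 1820 kept direction and side of the threshold, 46 fell below it and 0 reversed. With only the groups compared 15 genes lost their call, Fasn, Acly, Slco1a1, Serpina1e, Hamp, Mt1, Jun, Nr4a1 and Atf3 among them, and with deposited values 6 (Hspa5, Abcb11, Irs2, Srebf1, Fasn and Tubb2b). Genes at a few hundredths of a scaled count, such as Ciart under NRF (0.032 to 0.0482), rest on few recovered counts, and since recovered counts are not reads, the limit set by depth is not known.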
